A study of Mus musculus with 6 samples.

Results

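The genes of the MHC class II antigen presentation pathway were followed in epididymal white adipose tissue of mice on different diets. They were chosen by name, and all 10 (H2-Aa, H2-Ab1, H2-Eb1, Cd74, H2-DMa, H2-DMb1, H2-DMb2, H2-Oa, H2-Ob and Ciita) were found among the 48897 genes of the deposited table. Every library came from wild type C57BL/6 mice aged 35 weeks, fed from 6 weeks of age with a diet in which fat gave 60% (high-fat) or 10% (low-fat) of the calories. Group F-H-L is taken to have had the high-fat diet for 9 weeks and then 10 cycles, each a low-fat week and then a high-fat week. Group F-H is taken to have stayed on the high-fat diet and group F-L on the low-fat diet. Only the letters of these codes connect them to the diets in the labels. The labels do not say whether the 2 libraries of a group came from separate animals. The p-values below are therefore set against variation among libraries, which may not be variation among animals. The series asked how repeated diet switching affects metabolic balance.

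MHC class II molecules are pairs of an alpha and a beta chain that display peptides from proteins taken up by the cell to CD4 T cells. The invariant chain encoded by Cd74 holds the groove of a new molecule closed, the H2-DM heterodimer helps to exchange the last fragment of that chain for a peptide, and the H2-O heterodimer holds H2-DM back, mainly in B cells and dendritic cells. The coactivator encoded by Ciita does not bind DNA itself but is recruited by factors seated on a shared promoter element, and it is the master switch of the whole set. In fat, macrophages, dendritic cells and B cells are the main carriers of class II, and adipocytes can express some.

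In genome build mm10, 8 of the genes lie in the H2 cluster of chromosome 17, with deposited spans of 34092379 to 34095234 for H2-Oa, 34122719 to 34139101 for H2-DMa, 34145416 to 34151095 for H2-DMb2 and 34153191 to 34160229 for H2-DMb1. Further along the cluster lie H2-Ob (34238895 to 34254417), H2-Ab1 (34263227 to 34269418), H2-Aa (34282751 to 34287771) and H2-Eb1 (34305867 to 34316674). Ciita lies on chromosome 16 (10480014 to 10528606).

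The shared promoter element places an X box, bound by the RFX complex, a short distance before a Y box, bound by NF-Y. The RefSeq promoter table (build GRCm38.p6) held 7 of the 10 genes. It was searched on both strands, over the 250 bases before each start, for the X box core ACNGATG and the Y box ATTGG. The windows of 4 genes are shown because they carry the element in full or in part, and because H2-DMb1 and H2-DMb2 are a near-copy pair whose levels part below. Each runs from 130 to 31 bases before the start, 5′ to 3′ on the strand of the gene, with matches to either motif on that strand in capitals.
H2-Eb1, chr17:34305737-34305836, plus strand: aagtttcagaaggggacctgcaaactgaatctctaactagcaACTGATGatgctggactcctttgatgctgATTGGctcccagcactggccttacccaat
H2-DMb1, chr17:34153061-34153160, plus strand: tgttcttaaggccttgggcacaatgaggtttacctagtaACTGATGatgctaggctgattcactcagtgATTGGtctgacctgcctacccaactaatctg
H2-DMb2, chr17:34145119-34145218, plus strand: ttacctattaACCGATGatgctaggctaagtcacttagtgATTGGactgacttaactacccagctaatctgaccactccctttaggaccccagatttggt
H2-Aa, chr17:34287854-34287953, minus strand: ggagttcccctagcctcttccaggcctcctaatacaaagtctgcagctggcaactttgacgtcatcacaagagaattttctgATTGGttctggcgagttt

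The X box core was followed by the Y box on the same strand, with 10 to 30 bases between them, in H2-Eb1 (22 bases between), H2-DMb1 (23) and H2-DMb2 (23). The same arrangement was present in 49 of the 32851 promoters of the table (0.149%), among them the class II gene H2-Eb2 and the class I gene H2-D1. Alone, the X box core matched 8.31% and the Y box 33.8% of promoters. H2-Aa, H2-Ob and H2-Oa had the Y box 48, 57 and 43 bases before the start without an X box core in that arrangement, and of the 2 starts listed for H2-DMa 1 had neither motif and 1 had the Y box only. A match describes letters in a window and was not tied to binding in these libraries. Other spellings of the 2 boxes were not searched, so a missing match does not show that a box is absent.

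Libraries held 41091012 to 49230161 counts in all, and a gene with no count could still be at up to 0.0537 to 0.0754 CPM (3 counts, counting error only). CPM here is the usual count per unit of library size, with library sizes scaled by TMM. The 12 adipocyte markers summed to 42148 and 48481 CPM under F-H-L, 21966 and 28192 CPM under F-H, and 3038 and 22748 CPM under F-L. F-L replicate 1 was thus the library lowest in the markers that define the labelled tissue, with none of the 12 at 0 counts. The 12 epididymis markers summed to 1793 and 1662 CPM under F-H-L, 3.37 and 455 CPM under F-H, and 16652 and 3554 CPM under F-L, with 4 of the 12 at 0 in F-H replicate 1. The 11 testis germ cell markers summed to 120.1 and 143 CPM under F-H-L, 3.68 and 10.1 CPM under F-H, and 682 and 5638 CPM under F-L. Both sums were highest in F-L, but the median epididymis marker was at 2.52 and 4.51 CPM under F-H-L, 0.0330 and 6.13 CPM under F-H, and 266 and 1.65 CPM under F-L, so that only F-H replicate 1 was below F-L replicate 2 in it. In F-H against F-L, edgeR called Pate2 and Spint3 of the epididymis and Odf1 and Smcp of the germ cell list lower in F-H, beside 0.251% of the genes tested. The next smallest p of each list were those of Adam7 (-7.92 ± 2.01, edgeR adjusted p = 0.0891) and Prm2 (-9.04 ± 1.73, edgeR adjusted p = 0.0687). In the adipocyte list, where 0 passed, the smallest p were those of Cfd (-2.71 ± 0.70, edgeR adjusted p = 0.0907), Cd36 (1.96 ± 1.12, edgeR adjusted p = 0.304) and Pparg (1.33 ± 0.80, edgeR adjusted p = 0.327). The markers' part in the results below was not tested.

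All 10 genes were detected in every library, and all 10 passed the low-count filter, beside 22289 genes in all. Each of them was higher in both F-H libraries than in either F-L library, beside 27.0% of the genes tested. Each was also higher in both F-H-L libraries than in either F-L library, beside 29.8%. None of them passed an adjusted p of 0.05 in any comparison. Where all 3 groups are said below not to overlap for a gene, the share over all genes was not counted. In bulk tissue, fewer cells of a type and less RNA per cell cannot be told apart. The 10 genes together took 0.273% and 0.231% of the counts under F-H-L, 2.05% and 0.358% under F-H, and 0.0863% and 0.104% under F-L. The 95% Wilson intervals of these shares cover counting error only and are narrow, for example 2.047% to 2.055% in F-H replicate 1 and 0.356% to 0.360% in F-H replicate 2. The groups did not overlap in this share, and F-H replicate 1 stood far above all 5 other libraries.

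**Figure D1:**
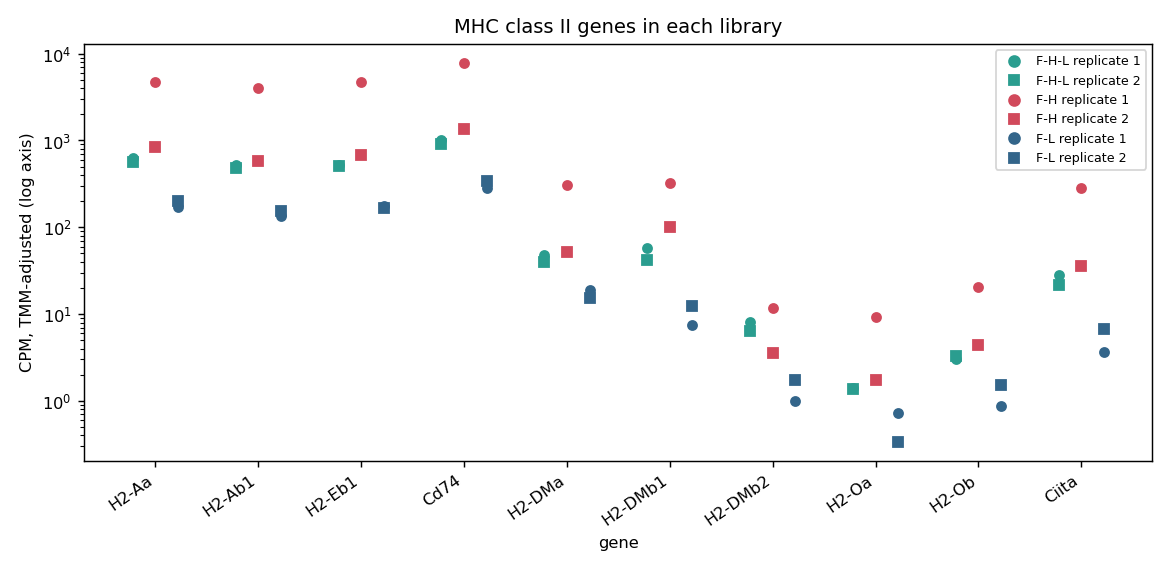
CPM of each class II gene (x axis) in each library on a log axis, with circles for replicate 1 and squares for replicate 2. For every gene the highest point is F-H replicate 1 and the 2 lowest points are the F-L libraries.

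Per length, the order of the genes was nearly fixed. In RPKM (reads scaled by gene length and library total), group means for Cd74 were 635 in F-H-L, 3018 in F-H and 246 in F-L. H2-Aa came next at 519, 2407 and 195 RPKM in the same order of groups, then H2-Ab1 at 395, 1796 and 136 RPKM, H2-Eb1 at 285, 1512 and 116 RPKM, and H2-DMb1 at 36.3, 154 and 8.77 RPKM. These 5 held the same ranks in all 6 libraries. The remaining genes were far lower. Ciita had mean levels of 3.12 RPKM in F-H-L, 20.0 RPKM in F-H and 0.781 RPKM in F-L. H2-Oa had 1.25, 4.87 and 0.559 RPKM and H2-Ob 0.854, 3.34 and 0.395 RPKM in the same order of groups, and these 2 exchanged places in F-L replicate 2. Where H2-DMa stands in this order depends on its length. The deposited length is 6798 bases, whereas the protein-coding transcripts of GENCODE M21 run from 1108 to 2005 bases, and in counts it was 0.519 to 2.53 times H2-DMb1, against 0.0981 to 0.479 times in RPKM. H2-DMb2 goes the other way, with a deposited length of 786 bases and GENCODE transcripts of 1414 to 1483 bases. By deposited lengths it ranked 6 of the 10 in both F-H-L libraries, 8 in both F-H libraries and 7 in both F-L libraries.

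The alpha and beta chains of the H2-A molecule were led by F-H replicate 1. H2-Aa, the alpha chain, was at 627 and 558 CPM under F-H-L, 4679 and 844 CPM under F-H, and 171 and 200.0 CPM under F-L. H2-Ab1, the beta chain, was at 525 and 483 CPM under F-H-L, 4033 and 576 CPM under F-H, and 135 and 154 CPM under F-L. The 3 groups did not overlap for either gene. For F-H against F-L the log2 fold change was 3.90 ± 0.90 for H2-Aa (SE, n = 2 per group, edgeR adjusted p = 0.0809) and 3.99 ± 0.98 for H2-Ab1 (edgeR adjusted p = 0.0858).

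H2-Eb1, the beta chain of the second class II molecule, was at 516 and 503 CPM under F-H-L, 4752 and 678 CPM under F-H, and 178 and 169 CPM under F-L. C57BL/6 mice carry a defective gene for its alpha partner, so H2-Eb1 messenger RNA is made without a surface H2-E molecule. That partner, listed as H2-Ea-ps, had 0 counts in 5 libraries and 2 counts in F-H replicate 2. H2-Eb2, a sparse relative, was at 0.616 and 0.930 CPM under F-H-L, 6.92 and 1.53 CPM under F-H, and 0.248 and 0.107 CPM under F-L. The log2 fold change of F-H over F-L was 3.97 ± 0.98 for H2-Eb1 (edgeR adjusted p = 0.0867) and 4.56 ± 1.11 for H2-Eb2 (edgeR adjusted p = 0.0857), n = 2 per group.

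Cd74, on chromosome 18 (60803849 to 60812652), was the most abundant of the set, at 1014 and 906 CPM under F-H-L, 7829 and 1343 CPM under F-H, and 283 and 339 CPM under F-L. Its log2 fold change was 3.88 ± 0.95 for F-H over F-L (edgeR adjusted p = 0.0858), with no overlap between groups.

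Among the peptide-exchange genes, H2-DMa, the alpha chain, was at 47.6 and 39.5 CPM under F-H-L, 306 and 51.8 CPM under F-H, and 18.8 and 15.2 CPM under F-L. H2-DMb1, the main beta chain, was at 57.0 and 42.2 CPM under F-H-L, 323 and 99.8 CPM under F-H, and 7.41 and 12.5 CPM under F-L. H2-DMb1 came nearest to the threshold of the 10 genes in F-H against F-L, at 4.41 ± 0.69 on the log2 scale (edgeR adjusted p = 0.0558), and H2-DMa was at 3.40 ± 0.84 (edgeR adjusted p = 0.0869). H2-DMb2, the second beta chain, was at 8.10 and 6.39 CPM under F-H-L, 11.7 and 3.61 CPM under F-H, and 0.991 and 1.74 CPM under F-L. It was the one gene of the 10 whose F-H-L and F-H libraries overlapped, with both F-H-L libraries between the F-H libraries. Its log2 fold change of F-H over F-L was 2.48 ± 0.78 (edgeR adjusted p = 0.116), the smallest of the 10.

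Ciita and the H2-O genes were among the lowest of the set in RPKM. Ciita was at 28.4 and 21.5 CPM under F-H-L, 286 and 36.2 CPM under F-H, and 3.65 and 6.73 CPM under F-L, so that its highest library held 78.5 times the CPM of its lowest, the widest range of the 10. Its log2 fold change of F-H over F-L was 4.96 ± 1.07 (edgeR adjusted p = 0.0761). H2-Oa was at 1.41 and 1.38 CPM under F-H-L, 9.21 and 1.74 CPM under F-H, and 0.721 and 0.340 CPM under F-L. H2-Ob was at 3.03 and 3.29 CPM under F-H-L, 20.3 and 4.43 CPM under F-H, and 0.878 and 1.54 CPM under F-L. The groups did not overlap for any of these 3 genes. For F-H over F-L the log2 fold change was 3.36 ± 1.04 for H2-Oa (edgeR adjusted p = 0.112) and 3.35 ± 0.91 for H2-Ob (edgeR adjusted p = 0.0952).

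F-H was set against F-L to ask what constant high-fat feeding changed. It placed 10 of 10 genes without overlap and higher in F-H, beside 27.0% of the genes tested (28.8% were lower). edgeR's quasi-likelihood test called 0 of the 10 (0.615% of the genes tested were called higher), and 10 of 10 had an unadjusted p under 0.05 and were higher, beside 12.5% of the genes tested. The median log2 fold change of the 10 was 3.89, with a range of 2.48 to 4.96, and that of all genes was -0.12. DESeq2 called all 10 higher, beside 2193 of the 22289 genes tested. edgeR with no low-count filter also called all 10 higher, beside 1968 of 42612 genes. Of the 10, limma on log2(RPKM + 0.1) called H2-DMb1 alone, beside 495 of 22289 genes called higher. The median of the 10 was 2.04 without F-H replicate 1, 3.84 without F-L replicate 1 and 4.07 without F-L replicate 2.

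F-H-L was set against F-L to ask what diet cycling changed relative to constant low-fat feeding. All 10 genes were higher without overlap, beside 29.8% of the genes tested, and 2 had an unadjusted p under 0.05 and were higher, beside 8.32% (9.51% were lower). edgeR called 0 of the 10, and 0.0% of the genes tested. The median log2 fold change was 1.65 (range 1.36 to 2.41), against -0.09 for all genes. The differences ran close together for the abundant chains, at 1.68 ± 0.82 for H2-Aa (edgeR adjusted p = 0.319) and 1.63 ± 0.87 for Cd74 (edgeR adjusted p = 0.342). H2-DMb2 (2.41 ± 0.78) and H2-DMb1 (2.31 ± 0.63) had the largest differences, each with an edgeR adjusted p of 0.274 (n = 2 per group), followed by Ciita (2.26 ± 0.95, edgeR adjusted p = 0.285). DESeq2 called 2 of the 10 higher, beside 590 of the 22289 genes tested. The direction of all 10 turned when each library was scaled to its adipocyte markers (median -1.32, all genes -3.18), and that of 3 genes turned with scaling to pan-leukocyte genes (median 0.14, all genes -1.64).

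F-H-L was set against F-H to ask how cycling differed from constant high-fat feeding. 9 of the 10 genes were lower without overlap, beside 25.6% of the genes tested, and 6 had an unadjusted p under 0.05 and were lower, beside 5.68% (4.92% were higher). edgeR called 0 of the 10, and 0.0% of the genes tested. The median log2 fold change was -2.14, against 0.10 for all genes. DESeq2 called 0 of the 10, beside 717 of 22289 genes called lower. edgeR with no low-count filter called 7 of the 10 lower, beside 610 of 42612 genes. H2-Aa was at -2.22 ± 0.84 (edgeR adjusted p = 0.453) and Cd74 at -2.26 ± 0.88 (edgeR adjusted p = 0.466). Ciita had the largest difference, at -2.69 ± 0.96 (edgeR adjusted p = 0.444), and H2-DMb2 the smallest, at -0.08 ± 0.74 (edgeR adjusted p = 0.982), n = 2 per group. Without F-H replicate 1 the median was -0.43 and H2-DMb2 turned to 1.02, so the size of this difference rests on that library. The 3 comparisons share libraries in pairs and are not independent of each other.

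**Figure D2:**
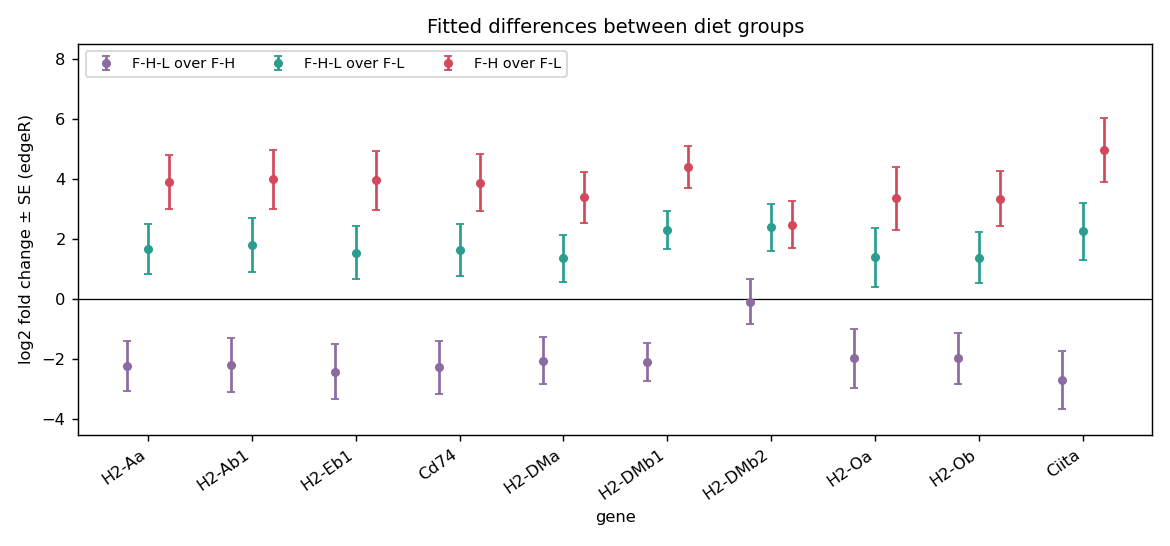
Log2 fold changes from the edgeR fit to all 6 libraries for each gene (x axis), with bars of 1 SE, for F-H-L over F-H, F-H-L over F-L and F-H over F-L. H2-DMb2 is the gene whose F-H-L over F-H value is near 0 (-0.08), while the other 9 lie between -1.97 and -2.69.

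The 2 F-H libraries lay far apart in these genes. Replicate 1 over replicate 2 was 5.54 for H2-Aa, 7.01 for H2-Ab1 and H2-Eb1, 5.83 for Cd74, 5.91 for H2-DMa, 5.28 for H2-Oa and 7.91 for Ciita in CPM. The smallest ratios were 3.24 for H2-DMb1 and 3.23 for H2-DMb2. The median over the 10 was 5.68, against 0.956 for all genes tested, while it was 1.12 in F-H-L and 0.844 in F-L. The same measure in F-H was 7.00 for the 8 CD4 T cell genes, 2.71 for the 12 dendritic cell markers, 2.31 for the 10 macrophage markers, 1.98 for the 10 B cell markers, 1.92 for the 10 pan-leukocyte genes and 0.758 for the 12 adipocyte markers. It was 0.0138 for the 11 epididymis markers tested and 0.442 for the 11 testis germ cell markers, so these 2 libraries also differed in markers of neighbouring tissue, whose part in the class II values was not tested.

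**Figure D3:**
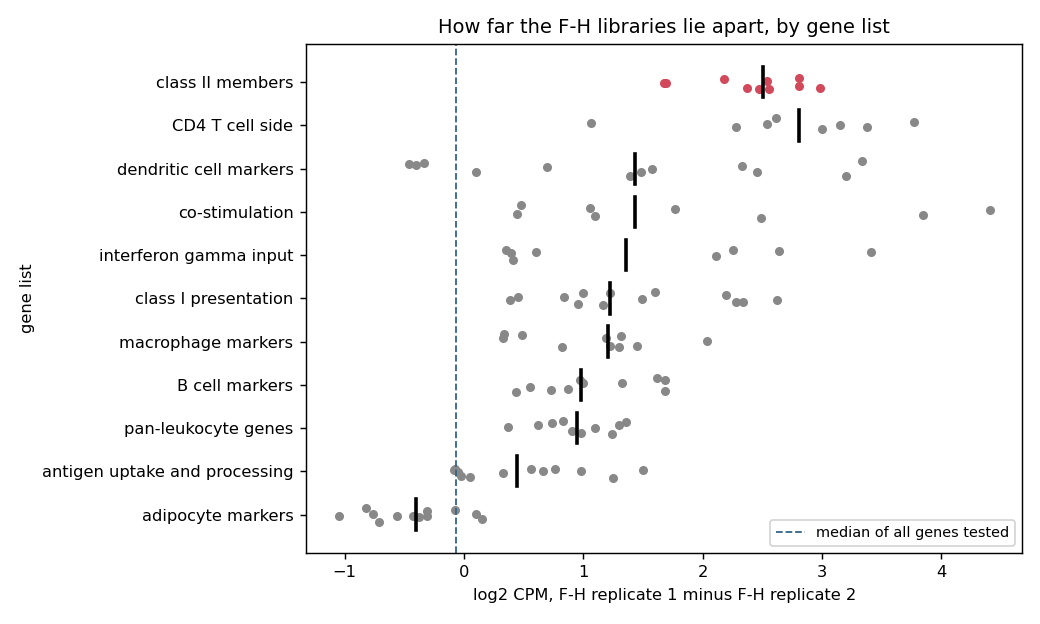
Difference in log2 CPM between F-H replicate 1 and F-H replicate 2 (x axis) for each gene of each list (y axis), with black bars at list medians and a dashed line at the median of all genes tested. The class II genes lie between 1.68 and 2.98, to the right of every pan-leukocyte gene, of which the highest is at 1.36.

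Markers of the cells that carry class II were read in the same libraries. All 10 macrophage markers were higher in F-H than in F-L without overlap, beside 27.0% of the genes tested, and 2 rose past the test, beside 0.615%. These were Itgax, the integrin CD11c (log2 fold change 6.53 ± 0.44, edgeR adjusted p = 0.0447), and Cd68, a lysosomal protein of macrophages (5.11 ± 0.54, edgeR adjusted p = 0.0447). C1qb, a complement subunit, missed it (4.25 ± 0.65, edgeR adjusted p = 0.0537). edgeR called 0 genes of any kind in this comparison with median-ratio factors, the robust fit, the 2 groups alone, the replicate block, or without any 1 of the F-H or F-H-L libraries, so these calls and those of Laptm5, Cd37, Rac2 and Ctss below are lost there. No macrophage marker passed in either F-H-L comparison. The macrophage markers summed to 1048 and 952 CPM under F-H-L, 9489 and 4409 CPM under F-H, and 285 and 543 CPM under F-L, with none at 0. Their median log2 fold change was 4.11 for F-H over F-L, 1.31 for F-H-L over F-L and -2.83 for F-H-L over F-H, against 3.89, 1.65 and -2.14 for the class II genes in the same order of comparisons.

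The 10 pan-leukocyte genes summed to 678 and 534 CPM under F-H-L, 4190 and 2164 CPM under F-H, and 210.2 and 253 CPM under F-L. All 10 were higher in F-H than in F-L without overlap, beside 27.0% of the genes tested. Past the test rose 4 (0.615% of the genes tested), among them Laptm5 (4.39 ± 0.55, edgeR adjusted p = 0.0480), a lysosomal protein of leukocytes. Also among them were Cd37 (3.51 ± 0.43, edgeR adjusted p = 0.0480), a tetraspanin of B cells, and Rac2 (4.10 ± 0.54, edgeR adjusted p = 0.0486), a small GTPase of blood cells. B cell markers were sparse, at 14.1 and 23.8 CPM in sum under F-H-L, 99.4 and 35.6 CPM under F-H, and 8.47 and 8.32 CPM under F-L. In F-H against F-L 8 of 10 were higher without overlap, beside 27.0% of the genes tested, and 0 passed, beside 0.615%. The largest B cell difference was that of Cd22, an inhibitory receptor, at 38.2 and 11.8 CPM under F-H, against 0.946 and 0.430 CPM under F-L (5.18 ± 0.87, edgeR adjusted p = 0.0610), followed by Cd79b (3.47 ± 0.83, edgeR adjusted p = 0.0850), of the B cell receptor complex. The part of any of these cells in the class II values was not tested.

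Dendritic cell markers differed in sign among themselves, and 0 of 12 passed in any comparison. In F-H against F-L, where 0.615% of the genes tested were called higher, 9 of 12 were positive. Higher without overlap were 9, beside 27.0% of the genes tested, and lower without overlap were 2 (Cd24a and Dpp4), beside 28.8%. The smallest p was that of Irf8 (3.53 ± 0.59, edgeR adjusted p = 0.0596), a factor of dendritic cell and monocyte development. Next were Clec10a, a lectin (2.42 ± 0.41, edgeR adjusted p = 0.0606), and Batf3, a factor needed for cross-presenting dendritic cells (3.16 ± 0.67, edgeR adjusted p = 0.0757). Cd209a, a lectin of monocyte-derived dendritic cells, was at 15.9 and 12.6 CPM under F-H-L, 3.97 and 5.01 CPM under F-H, and 3.87 and 10.0 CPM under F-L, and was thus highest in F-H-L. Clec9a, a receptor of the cross-presenting dendritic cell type that was picked after its values were seen, was at 5.02 and 4.85 CPM under F-H-L, 39.1 and 3.83 CPM under F-H, and 0.991 and 1.65 CPM under F-L.

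Relative to leukocyte genes the group order changed. The 4 abundant class II genes (H2-Aa, H2-Ab1, H2-Eb1 and Cd74) summed to 3.95 and 4.59 times the pan-leukocyte sum under F-H-L, 5.08 and 1.59 times under F-H, and 3.65 and 3.41 times under F-L. The F-H libraries were thus the highest and the lowest of the 6. With every library scaled to the pan-leukocyte genes, the median log2 fold change of the 10 genes was -0.067 for F-H over F-L (all genes -3.73), 7 of the 10 turned negative, and 0 were called.

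H2-Aa stood at 30.01 and 26.6 times Itgax under F-H-L, 16.1 and 3.67 times under F-H, and 85.2 and 55.0 times under F-L, so the groups did not overlap and F-H was lowest. The exact permutation p was 0.333 in each comparison, the smallest that 2 against 2 libraries allow (two-sided). Itgax had the largest F-H over F-L difference of the 10 macrophage markers (6.53). Against the sum of all 10, the 4 abundant genes stood at 2.56 and 2.57 times under F-H-L and 2.24 and 0.780 times under F-H. Under F-L they stood at 2.69 and 1.59 times, so that F-L overlapped both other groups. Against Clec9a the span was narrower than against Itgax, with H2-Aa at 125 and 115 times under F-H-L, 120 and 221 times under F-H, and 172 and 121 times under F-L. The whole list of 12 dendritic cell markers gave a wide span. The 4 abundant genes stood at 8.01 and 9.23 times its sum under F-H-L. They stood at 31.7 and 10.5 times under F-H and 2.70 and 5.36 times under F-L, a range of 11.7-fold. In F-L replicate 1 the list summed to 284 CPM, with Cd24a at 140 CPM and Dpp4 at 90.5 CPM. In F-H replicate 1 it summed to 671 CPM, with Cd24a at 30.1 CPM and Dpp4 at 23.8 CPM. Cd24a (-1.36 ± 0.60), Dpp4 (-1.18 ± 0.52) and Cd209a (-0.63 ± 0.61) were the negative genes of the list in F-H over F-L. The ratio to this sum is therefore not a level per dendritic cell.

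**Figure D4:**
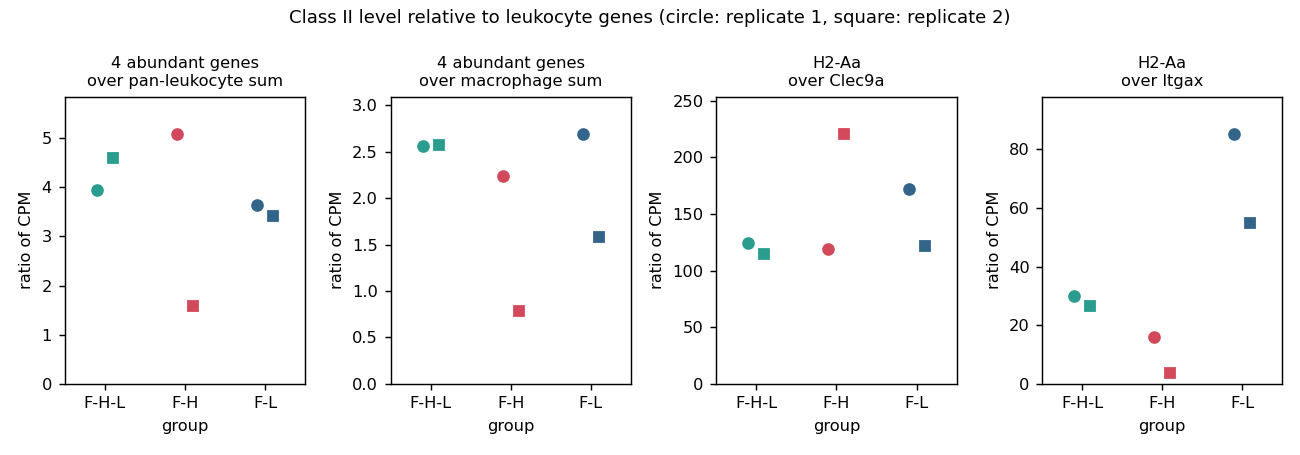
Ratios of CPM within each library (y axes) by group (x axes), with circles for replicate 1 and squares for replicate 2. The H2-Aa to Itgax ratio is lowest in F-H (16.1 and 3.67) and highest in F-L (85.2 and 55.0), while the class II to pan-leukocyte ratio spans 1.59 to 5.08 within F-H alone.

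Within each library, the abundant chains kept closer proportions than the H2-DM and H2-O chains. Cd74 stood at 1.22 and 1.23 times H2-Aa under F-H-L, 1.26 and 1.20 times under F-H, and 1.25 and 1.28 times under F-L in RPKM, a range of 1.06-fold while H2-Aa itself ranged 27.4-fold in CPM. H2-Aa stood at 1.33 and 1.29 times H2-Ab1 under F-H-L, 1.29 and 1.64 times under F-H, and 1.42 and 1.44 times under F-L. H2-Eb1 stood at 0.703 and 0.745 times H2-Ab1 under F-H-L, 0.842 and 0.842 times under F-H, and 0.945 and 0.781 times under F-L. None of these 3 ratios set F-H apart from F-L without overlap, while H2-Eb1 over H2-Ab1 was higher in both F-H than in both F-H-L libraries (exact permutation p = 0.333). H2-DMa over H2-DMb1 ranged 4.88-fold over the libraries. H2-Oa stood at 1.54 and 1.38 times H2-Ob under F-H-L, 1.496 and 1.30 times under F-H, and 2.70 and 0.728 times under F-L, a range of 3.71-fold. For H2-O the wide range rests on the F-L libraries, with few counts (32 and 19 for H2-Oa, 39 and 86 for H2-Ob). F-H-L and F-H ran only from 1.30 to 1.54 times.

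Of the ratios between class II genes, H2-DMb1 over H2-DMb2 was the one that set F-H apart from both other groups. H2-DMb1 stood at 4.31 and 4.04 times H2-DMb2 under F-H-L, 17.0 and 16.9 times under F-H, and 4.58 and 4.42 times under F-L in RPKM. The 2 F-H libraries, which differed 3.24-fold in H2-DMb1 itself, were nearly equal in this ratio and about 4 times above all others. The exact permutation p was 0.333 in each comparison, the smallest this design allows. The ratio was one of 21 set out with the values known. The counts behind it were 355 and 254 for H2-DMb2 under F-H-L, 529 and 149 under F-H, and 44 and 97 under F-L. The pair are near copies: 22.7% of the 50-base stretches of H2-DMb1 transcripts also occur in those of H2-DMb2 (GENCODE M21), so reads from shared stretches may have been split or dropped and both values are uncertain.

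Ciita was highest relative to H2-Aa in F-H replicate 1. It stood at 6.46 and 5.48 thousandths of H2-Aa under F-H-L, 8.71 and 6.11 thousandths under F-H, and 3.04 and 4.79 thousandths under F-L in RPKM. Both high-fat-fed groups lay above F-L without overlap (exact permutation p = 0.333, the smallest possible). Ciita shares 26076 bases of its span with Dexi on the opposite strand, and the strand setting of the counting is not given in the sources used here, so reads of the pair may not be told apart. Dexi had 846 and 646 counts under F-H-L, 894 and 534 under F-H, and 678 and 520 under F-L.

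**Figure D5:**
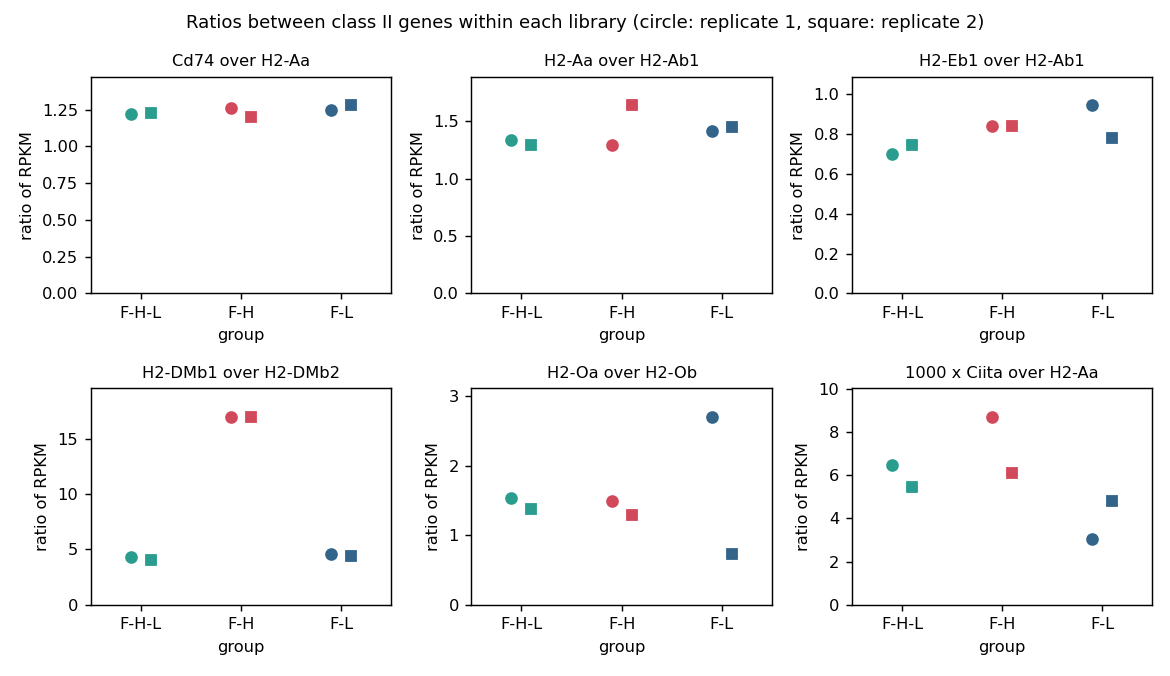
Ratios of RPKM between class II genes within each library (y axes, from 0) by group (x axes), with circles for replicate 1 and squares for replicate 2. H2-DMb1 over H2-DMb2 is 17.0 and 16.9 in F-H and between 4.04 and 4.58 elsewhere, while Cd74 over H2-Aa stays between 1.20 and 1.28.

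Other genes of the pathway were read from lists. Of the 7 promoter factors that seat the coactivator, 0 passed in F-H against F-L. Of these factors, 2 had an unadjusted p under 0.05 and were higher, beside 12.5% of the genes tested. Higher without overlap were 3, beside 27.0% of the genes tested. The median log2 fold change was 0.19, with a range of -0.71 to 1.86. Nfya, a subunit of the Y box factor, was the one with the largest difference, at 22.4 and 20.1 CPM under F-H-L, 77.3 and 57.6 CPM under F-H, and 16.8 and 20.2 CPM under F-L (F-H over F-L 1.86 ± 0.29, edgeR adjusted p = 0.0557). Creb1, which binds beside the X box, followed at 0.90 ± 0.26 (edgeR adjusted p = 0.101), and Nfyb, another subunit of the Y box factor, was at -0.71 ± 0.46 (edgeR adjusted p = 0.355). Rfx5, the X box subunit, was at 13.7 and 12.1 CPM under F-H-L, 20.8 and 15.0 CPM under F-H, and 12.9 and 12.9 CPM under F-L (0.47 ± 0.37, edgeR adjusted p = 0.450).

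Interferon gamma is the classic inducer of Ciita. Of 8 genes of its input, 7 were positive in F-H against F-L (median 1.93, all genes -0.12). Higher without overlap were 7, beside 27.0% of the genes tested, and 0 passed, beside 0.615% called higher. In F-H-L against F-L 7 were positive (median 1.0, all genes -0.09). Ifngr2, a chain of the interferon gamma receptor, had the smallest p, at 64.1 and 56.7 CPM under F-H-L, 113 and 88.4 CPM under F-H, and 28.4 and 33.4 CPM under F-L (F-H over F-L 1.70 ± 0.27, edgeR adjusted p = 0.0556). Jak1, a kinase of that receptor, was next (1.10 ± 0.28, edgeR adjusted p = 0.0907). Irf1, an early interferon-induced factor, was at 57.5 and 56.9 CPM under F-H-L, 239.6 and 55.4 CPM under F-H, and 24.5 and 24.1 CPM under F-L (F-H over F-L 2.60 ± 0.68, edgeR adjusted p = 0.0918). Ifng itself, picked after its values were seen, was sparse, at 0.662 and 0.0503 CPM under F-H-L, 3.52 and 0.291 CPM under F-H, and 0.0676 and 0.0895 CPM under F-L. F-H replicate 1 was again the highest library for both genes.

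Of 12 antigen uptake and processing genes, 11 were positive in F-H against F-L and 1 rose past the test (median 2.45), beside 0.615% of the genes tested. That gene was Ctss, the protease that trims the invariant chain in most antigen-presenting cells, at 205 and 129 CPM under F-H-L, 2810 and 1181 CPM under F-H, and 37.5 and 54.1 CPM under F-L. Its log2 fold change was 5.44 ± 0.67 (edgeR adjusted p = 0.0480) for F-H over F-L and -3.58 ± 0.62 (edgeR adjusted p = 0.244) for F-H-L over F-H. Lgmn, an asparagine-specific endosomal protease, was at 143 and 145 CPM under F-H-L, 1168 and 688 CPM under F-H, and 145 and 93.6 CPM under F-L (F-H over F-L 2.96 ± 0.44, edgeR adjusted p = 0.0524). Ctsz, another lysosomal protease, was at 3.44 ± 0.62 (edgeR adjusted p = 0.0649). For Lgmn the F-H-L libraries thus overlapped those of F-L, which none of the class II genes did.

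Of 8 co-stimulation genes, 8 were positive in F-H against F-L (median 3.22, all genes -0.12). Higher without overlap were 6, beside 27.0% of the genes tested, and 0 passed, beside 0.615% called higher. Cd48, an adhesion ligand of lymphocytes, came nearest (3.86 ± 0.54, edgeR adjusted p = 0.0501), at 14.1 and 9.08 CPM under F-H-L, 88.9 and 42.6 CPM under F-H, and 3.63 and 5.39 CPM under F-L. Next were Cd274, the inhibitory ligand PD-L1 (2.93 ± 0.55, edgeR adjusted p = 0.0663), and Cd40, the receptor of CD40 ligand (3.95 ± 0.78, edgeR adjusted p = 0.0711). Of 8 genes of the CD4 T cell side, 8 were positive (median 3.99, all genes -0.12). All 8 were higher in F-H without overlap, beside 27.0% of the genes tested, and 0 passed, beside 0.615%. Icos, a co-stimulatory receptor of T cells, was at 1.35 and 0.780 CPM under F-H-L, 13.3 and 1.62 CPM under F-H, and 0.180 and 0.179 CPM under F-L (F-H over F-L 5.36 ± 1.26, edgeR adjusted p = 0.0834). Cd3g, a subunit of the T cell receptor complex, followed at 4.37 ± 1.21 (edgeR adjusted p = 0.0978), and the co-receptor Cd4 at 3.01 ± 0.89 (edgeR adjusted p = 0.105). As for the class II genes, F-H replicate 1 was the highest library for Icos.

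The class I pathway, which presents cytosolic peptides in nearly all cells, was read the same way. Of its 13 genes 11 were positive in F-H against F-L (median 2.25, all genes -0.12). Higher without overlap were 9, beside 27.0% of the genes tested, and 0 passed, beside 0.615% called higher. In F-H-L against F-L 10 were positive (median 1.18, all genes -0.09). Psmb10, an immunoproteasome subunit, was at 78.1 and 95.01 CPM under F-H-L, 183 and 78.5 CPM under F-H, and 20.0 and 27.2 CPM under F-L (F-H over F-L 2.47 ± 0.48, edgeR adjusted p = 0.0695). Psmb8, another such subunit, was at 3.17 ± 0.74 (edgeR adjusted p = 0.0819) and Tap2, of the peptide transporter, at 2.25 ± 0.56 (edgeR adjusted p = 0.0889). H2-Aa stood at 0.337 and 0.333 times the class I gene H2-D1 under F-H-L, 0.869 and 0.352 times under F-H, and 0.220 and 0.255 times under F-L in CPM, again without overlap between groups (exact permutation p = 0.333 in each comparison). H2-D1 has close paralogs, so its counts are uncertain.

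The genes most like the class II profile were found among 8926 genes with a mean of at least 5 RPKM, by the root mean square difference in centred log2 CPM over the 6 libraries from the mean profile of H2-Aa, H2-Ab1, H2-Eb1 and Cd74. The nearest gene outside the set was Jchain, the joining chain of secreted antibodies, at a difference of 0.23, with 57.9 and 70.7 CPM under F-H-L, 678 and 104 CPM under F-H, and 21.9 and 18.1 CPM under F-L. Next came Il2rg (0.26), Pld4 (0.29), Sp110 (0.30), Sla (0.31), Trbc1 (0.32), H2-T23 (0.33) and Trbc2 (0.33), of which Il2rg encodes the common cytokine receptor chain of lymphocytes and Trbc1 and Trbc2 the T cell receptor beta constant regions. Within the set, H2-DMa was at 0.25 (rank 6), Ciita at 0.465 (rank 49), H2-DMb1 at 0.493 (rank 61) and H2-DMb2 farthest at 0.84 (rank 358). Genes outside the set thus lay nearer than Ciita, H2-DMb1 and H2-DMb2. The median over all ranked genes was 1.59. H2-Ob (0.29) and H2-Oa (0.396) had a mean below 5 RPKM and were not ranked.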

How the data were processed

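RNA libraries of epididymal fat (2 for each of 3 diet groups) were analysed from 1 deposited table of 48897 genes. It gives raw counts per gene and, per the file headers, RPKM, which the authors computed from counts, gene length and library total (recomputed from the 3, it matched the deposited value within 1e-06 of it for 100% of genes above 50 counts). The Length column (unit: other) is the deposited gene length in bases. The submitters' processing notes list bcl2fastq, HISAT2 2.1.0 and HTSeq, without roles, and build mm10; annotation release and strand setting were not given in the sources used here. 27 symbols turned into dates were restored by Entrez ID. Libraries of a group differed beyond counting noise (chi-square per degree of freedom 60.8 in F-H-L, 232 in F-H and 723 in F-L).

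Counts were tested in R 4.3.3 with edgeR 4.0.16 (filterByExpr, 22289 genes; TMM; 1 quasi-likelihood model over all 6 libraries with 1 coefficient per group, 3 residual degrees of freedom; two-sided; Benjamini-Hochberg over all genes, threshold 0.05), checked on simulated counts. SEs were obtained as the absolute log2 fold change divided by the root of the F statistic. Alternatives used limma 3.58.1 and DESeq2 1.42.0. Tables and figures used Python 3.11.15, pandas 2.3.3, numpy 2.4.6, scipy 1.17.1 and matplotlib 3.10.9. The genes, lists and ratios were chosen with earlier results of these data known; the naming rule took, of each list, genes past the test and the 3 with the smallest p. It was followed for F-H against F-L, with 2 genes not reported here, and for the other comparisons in part; other marker genes were given for their level. Replicate ratios of lists used log2 CPM with a prior count of 2. Equally numbered libraries were not paired (correlations of deviations 0.0244, -0.138 and -0.0189).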

Additional observations from a re-analysis of the deposited data

How the results depend on the processing

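In F-H against F-L, the main count of 193 genes called became 0 with the replicate block, with the 2 groups compared alone, with median-ratio factors and with a robust fit, 1 with library totals, 3758 with adipocyte scaling, 18133 with pan-leukocyte scaling, 6025 with no low-count filter, 6035 with DESeq2, and 411 and 1040 with limma on log2(RPKM + 1) and log2(RPKM + 0.1), and ran from 0 to 5799 with 1 library left out. Of the 10 class II genes, 10 were called with no low-count filter and with DESeq2, 1 with limma on log2(RPKM + 0.1), and 0 to 2 with 1 library left out; their median was 2.11 with adipocyte scaling, -0.067 with pan-leukocyte scaling and 2.04 to 4.72 with 1 library left out. With pan-leukocyte scaling, H2-Aa (-0.058), H2-Eb1 (-0.052), Cd74 (-0.075), H2-DMa (-0.62), H2-DMb2 (-1.31), H2-Oa (-0.69) and H2-Ob (-0.51) turned negative; the all-gene median moved to -3.73.

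In F-H-L against F-L, where 0 genes were called and 3975 had an unadjusted p under 0.05, calls were 6632 with adipocyte scaling, 3910 with no low-count filter (7 of the 10), 2425 with DESeq2 (2 of the 10), and 0 to 3508 with 1 library left out (2084 on dropping F-L replicate 1 and 3508 on dropping F-L replicate 2). The median of the 10 was -1.32 with adipocyte scaling, 0.14 with pan-leukocyte scaling and 1.57 to 1.84 with 1 library left out. With adipocyte scaling, H2-Aa (-1.31), H2-Ab1 (-1.20), H2-Eb1 (-1.56), Cd74 (-1.35), H2-DMa (-1.83), H2-DMb1 (-0.43), H2-DMb2 (-0.30), H2-Oa (-2.00), H2-Ob (-1.33) and Ciita (-0.42) turned negative, and with pan-leukocyte scaling H2-DMa (-0.22), H2-Oa (-0.23) and H2-Ob (-0.052).

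In F-H-L against F-H, where 0 genes were called and 2362 had an unadjusted p under 0.05, calls were 7 with adipocyte scaling, 7601 with pan-leukocyte scaling, 1759 with no low-count filter (7 of the 10), 1194 with DESeq2, 289 with the 2 groups alone, and 0 to 828 with 1 library left out. The median of the 10 was -3.35 with adipocyte scaling, 0.26 with pan-leukocyte scaling and -2.89 to -0.43 with 1 library left out. With pan-leukocyte scaling, H2-Aa (0.22), H2-Ab1 (0.28), H2-Eb1 (0.065), Cd74 (0.19), H2-DMa (0.40), H2-DMb1 (0.24), H2-DMb2 (2.26), H2-Oa (0.47) and H2-Ob (0.46) turned positive. H2-DMb2 also turned positive with limma on log2(RPKM + 1) (0.087) and log2(RPKM + 0.1) (0.12), with the replicate block (0.012), without F-H replicate 1 (1.02) and without F-H-L replicate 2 (0.10), and ran from -0.68 to 1.02 with 1 library left out.

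Of 520 single-gene values under alternatives, 446 kept direction and side of the threshold, 40 kept direction and passed it, and 34 turned, as given above. The causes were not tested. The replicate block called 0 genes in all 3 comparisons, and a crossed pairing, added after the data were examined, called 0 in F-H-L against F-L. With 1 library left in a group, that library is assumed to vary like the others. Each group has 2 libraries, which limits every value, and depth is lowest for H2-Oa (19 counts in F-L replicate 2), H2-Ob (39 in F-L replicate 1) and H2-DMb2 (44 in F-L replicate 1).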
